A study of Mus musculus with 10 samples.

Results

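The 7 genes described here mark B lymphocytes: the surface protein gene Ms4a1, the antigen receptor chain genes Cd79a and Cd79b, the co-receptor genes Cr2 and Cd22, and the nuclear regulator genes Pax5 and Pou2af1. They were chosen by symbol, all 7 were found once among the 53465 genes counted, and all 7 were among the 15695 genes that passed the filter on low counts. The libraries were made from whole lung of BALB/c mice. Of these, 5 are of mice given IL-33, an alarmin cytokine released by epithelium, through the nose at 1 µg in 35 µL a day for 5 days, with lungs taken 24 hours after the last dose. The other 5 are labelled control, with no dose. The sources used here do not state whether controls received vehicle, nor the age and sex of the animals, so instillation and IL-33 cannot be told apart. Nor do they state that each library is a different mouse, and p-values then measure only the spread between libraries, which may be technical.

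A B cell senses antigen with surface immunoglobulin, which signals through the paired chains that Cd79a and Cd79b encode. The complement receptor from Cr2 lowers the threshold of that signal, while the sialic acid-binding receptor from Cd22 recruits phosphatases that dampen it. Pax5 holds cells in the B lineage and is switched off when they become plasma cells, and Pou2af1 is a coactivator for octamer-binding factors that both B cells and plasma cells use. Normal lung holds few B cells, which can gather in lymphoid aggregates during inflammation. In whole-tissue RNA, fewer cells of a type and less RNA per cell cannot be told apart.

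Reads counted in genes came to 7805175 to 13178798 in IL-33 libraries and 8935159 to 13767118 in control libraries. The lung epithelial genes Sftpc, Scgb1a1 and Ager stood at 1104 CPM or more in every library, where CPM is the usual count scaled by library size, here with TMM factors. Scgb1a1 ran from 10697.9 to 12636.2 CPM in IL-33 libraries and from 16548.5 to 18452.7 CPM in control libraries. Ager ran from 1104 to 1294 CPM in IL-33 libraries and from 1551 to 1939 CPM in control libraries. Both were thus lower in IL-33 libraries with no overlap, while the groups overlapped for Sftpc. Controls 1 and 2 stood apart in the B cell genes: control 1 held the highest value of all 7 genes among controls and control 2 the lowest of all 7. Fold changes of the 7 genes are therefore also given without each of them.

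Of the 7 genes, 5 were called higher in IL-33 lungs, 0 were called lower, and Pax5 and Cd22 were not called, with edgeR's quasi-likelihood test at a Benjamini-Hochberg adjusted p of 0.05. Over all genes tested, 35.1% were called higher and 34.8% lower, 69.9% in all, so the share of the 7 called in either direction is near that of all genes and is not a result about them. The median log2 fold change (IL-33 over control) of the 7 genes was 1.15, beside -0.01 for all genes tested. The groups did not overlap for Ms4a1 and Pou2af1, 2 of the 7 genes, where 29.1% of all genes tested were higher with no overlap and 27.4% lower with no overlap. Without controls 1 and 2 together, an alternative chosen after the data were seen, 6 of the 7 were called higher.

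Ms4a1 encodes CD20, a membrane protein found on B cells before they become plasma cells (ENSMUSG00000024673, GRCm38 chromosome 19, 11249675 to 11266241, minus strand). It stood at 66.6, 94.5, 61.9, 60.7 and 78.9 CPM in IL-33 libraries 1 to 5, against 55.6, 8.44, 28.3, 30.5 and 15.5 CPM in control libraries 1 to 5. All 5 IL-33 values lay above the highest control, control 1. Its log2 fold change was 1.37 ± 0.47 (SE, n = 5 and 5), a 2.58-fold rise (adjusted p = 0.00361 by edgeR's quasi-likelihood test). Here and below, the SE beside an edgeR fold change is that of the difference of group means of log2(CPM + 0.5), a different estimate. It was 1.79 without control 1 and 1.13 without control 2.

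Cd79a and Cd79b encode the signalling chains Ig-alpha and Ig-beta of the B cell receptor. Cd79a (ENSMUSG00000003379, chromosome 7, 24897381 to 24902197, plus strand) stood at 57.1, 76.3, 45.5, 38.6 and 63.3 CPM in IL-33 libraries 1 to 5, against 52.6, 5.48, 25.8, 25.9 and 14.6 CPM in control libraries 1 to 5. IL-33 libraries 1, 2 and 5 exceeded the highest control, and all 5 exceeded the control median. For Cd79a the log2 fold change was 1.15 ± 0.55 (SE, n = 5 and 5; adjusted p = 0.0206 by edgeR), 1.62 without control 1 and 0.88 without control 2. The call ended without control 5 (0.99, adjusted p = 0.0539) and after removing each library's trend on gene length and GC content (0.69, adjusted p = 0.128).

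Cd79b (ENSMUSG00000040592, chromosome 11, 106311341 to 106314762, minus strand) stood at 77.8, 97.6, 76.2, 55.4 and 70.2 CPM in IL-33 libraries 1 to 5, against 57.8, 10.6, 31.9, 34.7 and 18.6 CPM in control libraries 1 to 5. IL-33 library 4 fell just under control 1, and the other 4 IL-33 libraries lay above it. This gave a log2 fold change of 1.27 ± 0.43 (SE, n = 5 and 5; adjusted p = 0.00342 by edgeR). It was 1.63 without control 1, 1.046 without control 2, and 0.79 and still called with the length and GC trends removed. Cd79b and Cd79a have the least exonic sequence of the 7, at 1431 and 1457 bases.

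Pou2af1 (ENSMUSG00000032053, chromosome 9, 51213708 to 51240080, plus strand) stood at 49.9, 85.2, 48.9, 54.3 and 61.1 CPM in IL-33 libraries 1 to 5, against 47.0, 7.57, 18.6, 18.6 and 15.4 CPM in control libraries 1 to 5. All IL-33 values lay above all control values, although control 1 came within a few CPM of the lowest IL-33 library. Its log2 fold change was 1.45 ± 0.43 (SE, n = 5 and 5), a 2.74-fold rise (adjusted p = 0.00225 by edgeR), 1.97 without control 1 and 1.23 without control 2. Pou2af1 and Ms4a1 had the 2 highest estimates of the 7, and their order turned with the length and GC trends removed, at 1.25 for Pou2af1 and 1.53 for Ms4a1.

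Pax5, the regulator that commits cells to the B lineage (ENSMUSG00000014030, chromosome 4, 44524757 to 44710487, minus strand), was not called. It stood at 54.8, 58.0, 44.5, 35.8 and 43.3 CPM in IL-33 libraries 1 to 5, against 61.0, 6.69, 24.9, 29.6 and 19.1 CPM in control libraries 1 to 5. Every IL-33 library exceeded the control median, but control 1 was the highest of all 10 libraries. The log2 fold change was 0.72 ± 0.52 (SE, n = 5 and 5; adjusted p = 0.111 by edgeR). Without control 1 it was 1.21 (adjusted p = 0.00326), without control 2 it was 0.45 (not called), without controls 1 and 2 together 0.92 (adjusted p = 0.000771), and with the length and GC trends removed 0.98 (adjusted p = 0.0421), so the call on Pax5 depends on these choices.

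Cr2, which in the mouse yields complement receptors CD21 and CD35 on B cells and follicular dendritic cells (ENSMUSG00000026616, chromosome 1, 195136811 to 195176716, minus strand), was the least abundant of the 7. It stood at 21.4, 19.7, 14.3, 13.4 and 16.5 CPM in IL-33 libraries 1 to 5, against 17.6, 4.17, 12.1, 10.6 and 7.89 CPM in control libraries 1 to 5. IL-33 libraries 1 and 2 exceeded the highest control, and the other 3 did not. The log2 fold change was 0.68 ± 0.35 (SE, n = 5 and 5; adjusted p = 0.0436 by edgeR). Without control 1 it was 0.95. The call was lost in 7 of the 10 fits that leave out a library, those without control 2, 3, 4 or 5 (0.47, 0.71, 0.66 and 0.57) or without IL-33 library 1, 2 or 5 (0.58, 0.63 and 0.68). Cxcl13, the chemokine of follicular stroma, averaged 26.1 ± 12.6 CPM in IL-33 lungs and 4.26 ± 0.717 CPM in controls (SD, n = 5 each), and which cells held Cr2 was not tested.

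Cd22 (ENSMUSG00000030577, chromosome 7, 30865402 to 30880342, minus strand) did not follow the others. It stood at 26.5, 31.1, 24.8, 25.5 and 39.7 CPM in IL-33 libraries 1 to 5, against 52.2, 16.7, 35.7, 32.9 and 29.7 CPM in control libraries 1 to 5. Only 1 IL-33 library exceeded the control median. Cd22 had a log2 fold change of -0.18 ± 0.29 (SE, n = 5 and 5; adjusted p = 0.498 by edgeR), 0.031 without control 1 and -0.36 without control 2. Genes on the opposite strand that share exon bases with Cd22 (Gm29439) or Pax5 (Gm12462 and 5730488B01Rik) held at most 2 reads in any library.

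**Figure D1:**
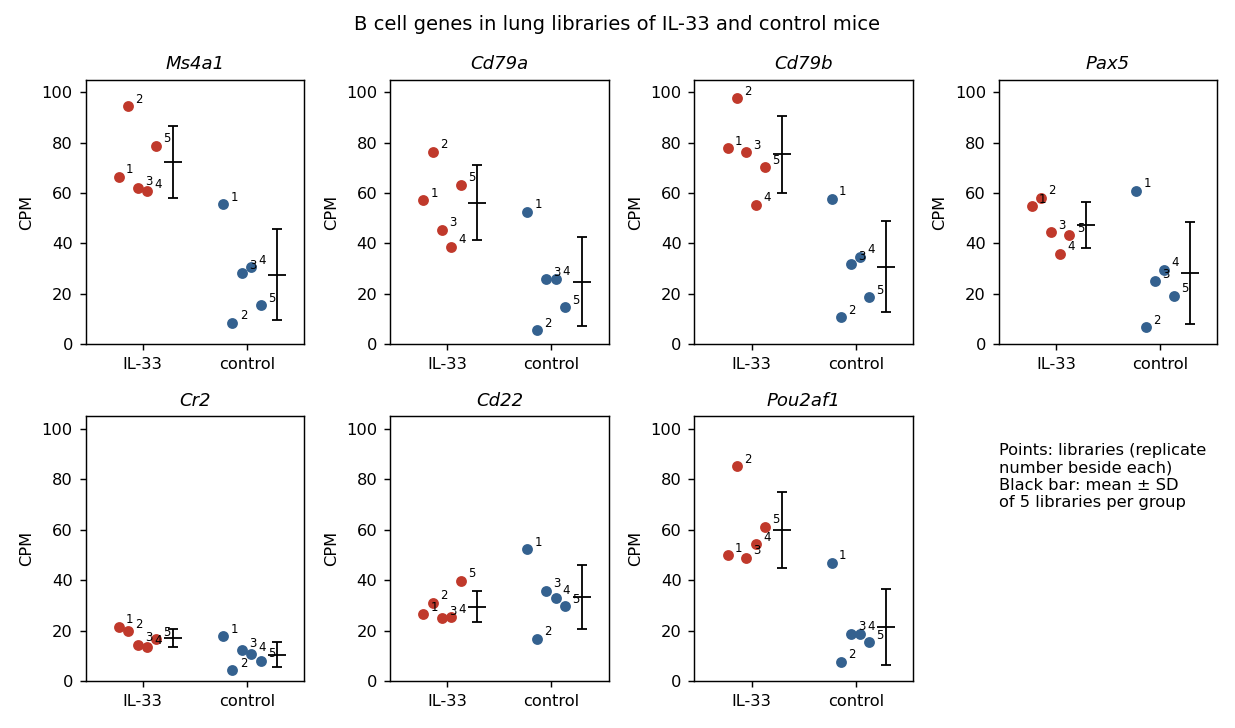
Level of each B cell gene in CPM (linear axis from 0), 1 point per library with its replicate number, IL-33 left and control right, and black bars for the mean ± SD of 5 libraries. Control 1 is the highest and control 2 the lowest control in all 7 panels, and the IL-33 points sit above all controls for Ms4a1 and Pou2af1 but not for Cd22.

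**Figure D2:**
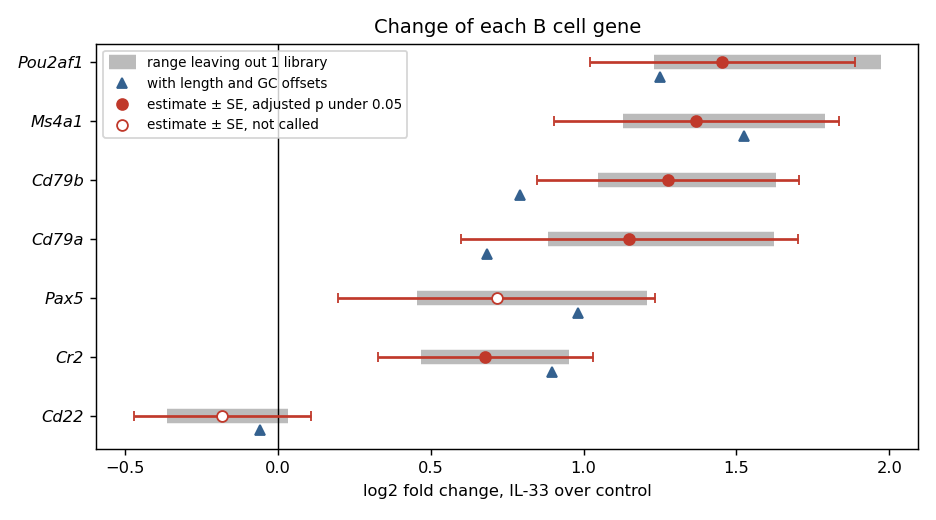
Log2 fold change, IL-33 over control, for each gene (circles ± SE, filled where the adjusted p is under 0.05), with grey bars for the range over fits that leave out 1 library and triangles for the fit with length and GC offsets. Values run from -0.18 for Cd22 to 1.45 for Pou2af1, and the offsets lower Cd79a, Cd79b and Pou2af1 but raise Pax5, Cr2, Ms4a1 and Cd22.

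The promoters of Cd79a, which was called higher, and Cd22, which was not, are shown because their ratio within libraries, given after them, shifted between groups. Both sequences are from RefSeq on GRCm38.p6, 250 bases before to 50 after the annotated start, in the direction of the gene, and RefSeq promoters were matched for 5 of the 7 genes. Capitals mark letters of the motifs searched on both strands: the octamer ATGCAAAT, the early B cell factor pattern (TCCC, any 2 bases, then GGGA) and the PU.1 pattern GAGGAAG.
Cd79a, chr7:24897247-24897546, plus strand: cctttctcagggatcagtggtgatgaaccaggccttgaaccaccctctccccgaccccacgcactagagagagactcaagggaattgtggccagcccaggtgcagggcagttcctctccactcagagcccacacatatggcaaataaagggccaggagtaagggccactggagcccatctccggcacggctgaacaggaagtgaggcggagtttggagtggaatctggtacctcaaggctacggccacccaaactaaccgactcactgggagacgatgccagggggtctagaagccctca
Cd22, chr7:30878979-30879278, minus strand: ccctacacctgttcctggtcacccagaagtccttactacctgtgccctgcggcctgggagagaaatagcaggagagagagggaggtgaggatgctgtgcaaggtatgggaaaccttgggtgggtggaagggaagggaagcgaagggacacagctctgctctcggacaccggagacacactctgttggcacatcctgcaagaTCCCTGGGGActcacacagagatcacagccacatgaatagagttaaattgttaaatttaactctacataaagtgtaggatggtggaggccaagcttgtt
Of the 5 windows (Cd79a, Pax5, Cr2, Cd22 and Pou2af1), Cd22 alone held an exact match. That match was to the early B cell factor pattern, from 49 to 40 bases before the RefSeq start, and overlapped no other match. The Cd22 window lies inside the GENCODE gene span given above, which on the minus strand begins at its upper end, 30880342. The RefSeq start used here is therefore not the outermost annotated start of Cd22. Among 32851 promoter windows of 300 bases, 0.904% held that pattern, 1.74% the octamer and 13.6% the PU.1 pattern. A match is a description of letters and not a bound site. Only these exact letters were searched, so a window without capitals, such as that of Cd79a, may still hold a variant of such a site.

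Because the ratio of a pair of genes within a library does not depend on how libraries are scaled, each pair of the 7 genes was also compared as a log2 ratio, 21 pairs in all, with 2-sided exact permutation tests over the 5 and 5 libraries. The smallest p this design allows is 0.00794. After Benjamini-Hochberg adjustment over the 21 pairs, 14 ratios differed between groups at 0.05. All 6 ratios that hold Cd22 were among them, and in each Cd22 was the gene that lagged. Leaving out any 1 library gave 0 to 14, where the smallest possible p is 0.0159, and leaving out controls 1 and 2 gave 0, where it is 0.0357, although 13 pairs then did not overlap.

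Against Ms4a1, Cd22 showed the shift plainly. The log2 ratio of Ms4a1 to Cd22 averaged 1.30 ± 0.22 in IL-33 libraries and -0.45 ± 0.48 in control libraries (SD, n = 5 each). The IL-33 libraries ran from 0.99 to 1.6 and the control libraries from -0.98 to 0.09, with no overlap. The difference was 1.75 ± 0.24 (SE; exact permutation p = 0.00794, the smallest possible, adjusted p = 0.0278), and 1.62 to 1.88 when any 1 library was left out. Ms4a1 reads outnumbered Cd22 reads in all 5 IL-33 libraries, and among controls in control 1 alone.

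The shift against Cd22 was 1.81 for Pou2af1, 1.6 for Cd79b, 1.59 for Cd79a, 1.16 for Pax5 and 0.94 for Cr2, each as a difference of mean log2 ratios. All of these except that of Pax5 had no overlap between groups in any of the 10 sets that leave out a library, and all 6 kept their sign and their call with the length and GC trends removed. In control 2, the library poorest in B cell genes, Cd22 stood at 16.7 CPM while the other 6 ran from 4.17 to 10.6 CPM. Cd22 also varied least between controls, 3.13-fold from lowest to highest against 4.23-fold to 9.60-fold for the others. Whether another lung cell type supplied part of the Cd22 reads was not tested.

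Cr2 and Pax5 were also lower relative to Ms4a1 and Pou2af1 in IL-33 libraries, of which only the ratio of Ms4a1 to Cr2 was still called with the length and GC trends removed. The log2 ratio of Ms4a1 to Cr2 averaged 2.09 ± 0.26 in IL-33 libraries and 1.28 ± 0.30 in control libraries (SD, n = 5 each), a difference of 0.81 (exact permutation, adjusted p = 0.0303), and 0.74 with the length and GC trends removed (adjusted p = 0.0370). For Ms4a1 to Pax5 the difference was 0.59 (exact permutation, adjusted p = 0.0303), and 0.47 (adjusted p = 0.0909) after removing those trends. Pax5 to Pou2af1 differed by -0.65 (exact permutation, adjusted p = 0.0357), and by -0.16 (adjusted p = 0.546) without the trends. For Cr2 to Pou2af1 the difference was -0.87 (exact permutation, adjusted p = 0.0303), and -0.44 (adjusted p = 0.128) without them. The ratios of Cd79a and Cd79b to Pax5 and Cr2 differed as well, by 0.43 to 0.66, but turned to -0.32 to -0.045 with the trends removed, so no order between those genes is read from them.

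Cd79a and Cd79b, whose products form a heterodimer, showed no difference in their ratio beyond the spread between libraries. The log2 ratio of Cd79a to Cd79b averaged -0.44 ± 0.22 in IL-33 libraries and -0.43 ± 0.31 in control libraries (SD, n = 5 each). The difference was -0.01 ± 0.17 (SE; exact permutation p = 0.921), so a shift of the size of that SE would not be detectable. Ms4a1 against Pou2af1 differed by -0.06 ± 0.15 (SE; exact permutation p = 0.690). Ms4a1 differed from Cd79a by 0.16 and from Cd79b by 0.15, neither called, but by 0.79 from each with the length and GC trends removed, with no overlap (exact permutation, adjusted p = 0.0238). Whether Ms4a1 and these chains shifted alike therefore depends on that choice.

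**Figure D3:**
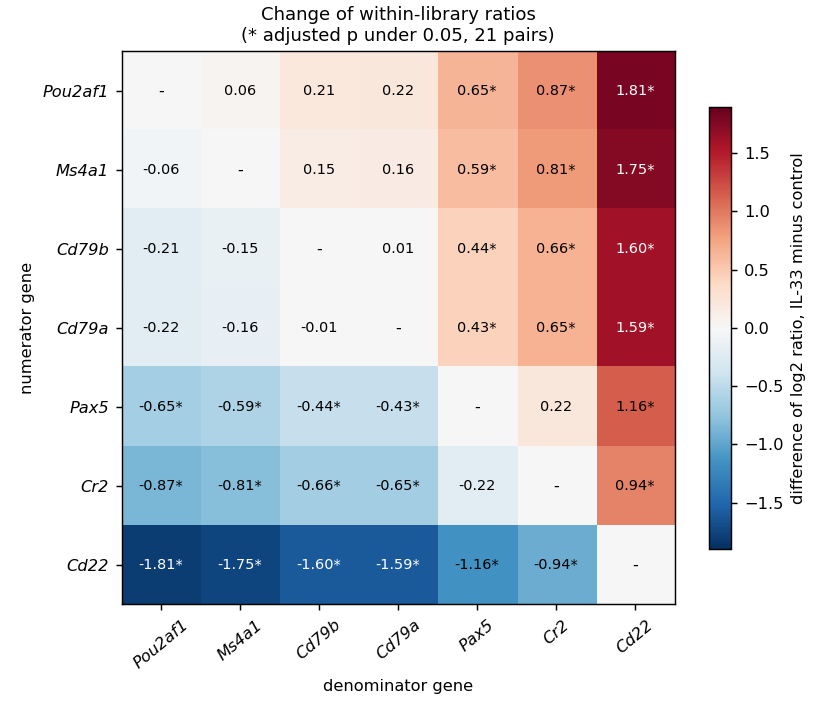
Difference between IL-33 and control libraries in the mean log2 ratio of the row gene to the column gene, with asterisks for adjusted p under 0.05 over 21 pairs. The Cd22 column is the darkest, from 0.94 against Cr2 to 1.81 against Pou2af1, while Pou2af1, Ms4a1, Cd79b and Cd79a differ from each other by at most 0.22, although with length and GC offsets, not drawn here, Ms4a1 differs from Cd79a and Cd79b by 0.79.

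Per kilobase of exon, Cd79b was the most abundant of the 7 in IL-33 lungs at 52.7 ± 10.6 CPM per kb, followed by Cd79a at 38.5 ± 10.2, Pou2af1 at 23.5 ± 5.87, Ms4a1 at 11.7 ± 2.31, Cd22 at 5.86 ± 1.23, Pax5 at 5.34 ± 1.02 and Cr2 at 2.10 ± 0.423 CPM per kb (SD, n = 5). Cd79b exceeded Cd79a, and Cd79a exceeded Pou2af1, in every library of both groups, although their means overlapped within 1 SD. Cd22 and Pax5 changed places from one IL-33 library to another. In control lungs the order was the same except that Cd22, at 6.63 ± 2.53 CPM per kb, stood above Ms4a1, at 4.47 ± 2.92. Control values of neighbours in that order overlapped within 1 SD, a spread between libraries that the genes share. Within each control library the control order held, except that Cd22 exceeded Pou2af1 in control 2. Exonic length merges all annotated transcripts, so genes with long alternative exons are set low on this scale.

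With both groups pooled, the 7 genes varied together from library to library around their group means. The relation was closer among controls, where r between genes ran from 0.954 to 0.9998 (n = 5). Among IL-33 libraries alone r ran from 0.119, for Pax5 and Cd22, to 0.933, with a median of 0.684 (n = 5). Deviations of log2(CPM + 0.5) from the group mean correlated between genes with Pearson's r of 0.856 to 0.986 and Spearman's rho of 0.612 to 0.988 over 10 libraries, for all 21 pairs. Permuting libraries within groups (14400 arrangements, exact) gave p of 6.94e-05, the smallest possible, to 0.0261 for r and to 0.0881 for rho. Adjusted over 21 pairs these were at most 0.0261 for r and 0.0881 for rho. Without the 2 libraries farthest from the median, r ran from 0.236 to 0.936, so the strength of the relation rests largely on controls 1 and 2.

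Over all 5 libraries of a group, IL-33 libraries were the more alike. Between the lowest and the highest library of a group, the 7 genes spanned 1.56-fold to 1.98-fold in IL-33 lungs and 3.13-fold to 9.60-fold in control lungs. Controls 1 and 2 set the ends of every control span. Among controls 3 to 5, Cd22 ran from 29.7 to 35.7 CPM, beside 24.8 to 39.7 CPM in IL-33 libraries. Ms4a1 ran from 15.5 to 30.5 CPM in those controls, beside 60.7 to 94.5 CPM in IL-33 libraries. How alike the groups are apart from controls 1 and 2 was not tested. Summed over the 7 genes, IL-33 libraries held 283.6 to 462 CPM and control libraries 59.6 to 344 CPM. Control 1 also held the highest summed level among controls of the pan-leukocyte list (911 CPM against 503 to 725 CPM in the other controls), and of T cell genes it held 142 CPM against 86.6 to 158 CPM; the part of other leukocytes in its B cell gene levels was not tested.

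**Figure D4:**
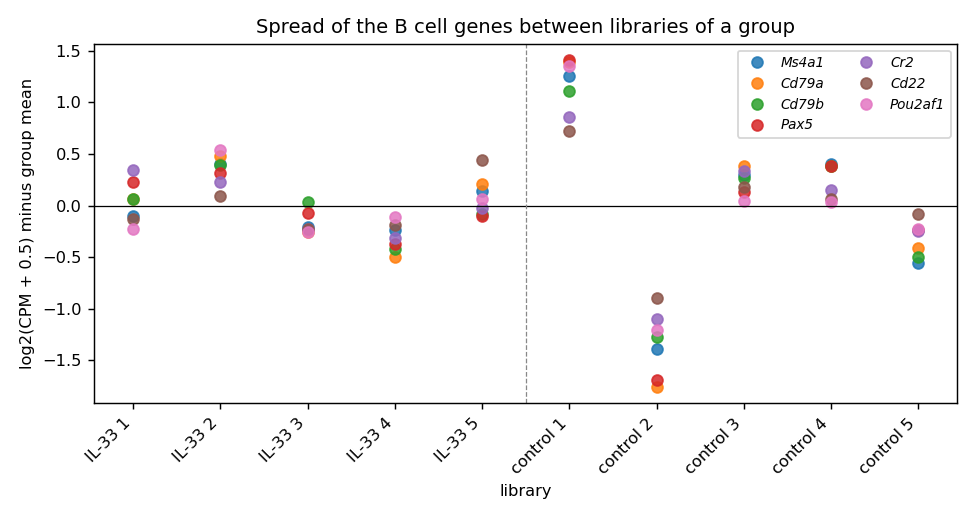
Deviation of log2(CPM + 0.5) from the group mean for each gene (colours) in each library, IL-33 libraries on the left. All 7 genes are above the mean in control 1 and below it in control 2, and every IL-33 library lies closer to 0 than these 2 controls on average.

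Genes most like the 7 across libraries were ranked over 10 libraries by Pearson's r between their deviations from the group mean and the mean deviation of the 7, among 13911 genes with a mean of 1 CPM or more (pseudogenes, numbered models and antigen receptor segments left out). Among the 10 highest were Bank1 (r = 0.980), Fcmr (0.979), Clcf1 (0.976), Tnfrsf13b (0.975), Blk (0.974), Fcrla (0.972), Siglecg (0.964), Zc3h12d (0.964) and Fgd3 (0.963). Most are known from B cells, such as the Src family kinase gene Blk. These r values chose the genes and carry no test. Of the 10, 8 were called higher in IL-33 lungs, beside 35.1% of all genes tested. Fcmr, a receptor for IgM, had a log2 fold change of 0.33 and was not called, and Clcf1, a cytokine gene, fell by 0.41. The libraries are those in which the 7 genes were measured, so depth and composition are shared.

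Other B cell surface genes were called higher in 10 of 13 cases and lower in none, with a median log2 fold change of 1.17 beside -0.01 for all genes tested. For this list and those that follow, the shares over all genes tested were 35.1% called higher and 34.8% called lower. Ltb, encoding lymphotoxin beta, rose by 3.15 and Cd37, a leukocyte tetraspanin gene, by 2.02, both also used by other lymphocytes. Cd24a, the most abundant of the list and also epithelial, averaged 396 ± 73.9 CPM in IL-33 lungs and 253 ± 34.5 CPM in controls (SD, n = 5 each). Fcer2a, Fcrl1 and H2-Ob were not called, at 0.77, 0.64 and 0.58.

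Among 19 genes of B cell receptor signalling, 13 were called higher and 3 lower, with a median of 0.95. Blnk, the adaptor that links the receptor to downstream enzymes, rose by 2.24 and Prkcb, a protein kinase C gene, by 2.04. Pik3ap1, an adaptor for phosphoinositide 3-kinase, fell by 1.80, Rasgrp3 by 0.50 and Cd81, the most abundant and a widely expressed tetraspanin gene, by 0.30. Many genes of this list serve myeloid cells as well.

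All 11 genes that dampen B cell receptor signals, other than Cd22, were called higher, beside 35.1% of all genes tested. Of them, 5 passed a test against a 1.5-fold change. All 7 pan-leukocyte genes were called higher too, with a median of 2.45, and which cells held the genes of this list was not tested. Fcgr2b, the inhibitory Fc receptor also found on myeloid cells, averaged 191 ± 18.5 CPM in IL-33 lungs and 26.2 ± 4.44 CPM in controls (SD, n = 5 each). Fcrl5, an Fc receptor-like gene, averaged 3.57 ± 0.654 CPM in IL-33 lungs and 0.205 ± 0.161 CPM in controls (SD, n = 5 each). Siglecg, which like Cd22 encodes a sialic acid-binding inhibitory receptor, rose by 1.16 ± 0.44 (SE; adjusted p = 0.00739 by edgeR). Inpp5d, a lipid phosphatase gene and the most abundant of the list, rose by 0.84.

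Of 15 transcription factor genes of B cells, 7 were called higher and 3 lower, with a median of 0.23. Over all genes tested 69.9% were called, 35.1% higher and 34.8% lower, so the share called is near that of all genes. The counts are therefore not a result about this list. Ikzf3 rose by 2.02, Ikzf1 by 1.78 and Pou2f2, whose product works with that of Pou2af1, by 1.77. Bach2, a repressor that holds back plasma cell fate and is also active in T cells, fell by 1.06 with no overlap between groups, and Foxo1 fell by 0.37. Ets1, the most abundant, fell by 0.31, a call lost without control 1 or without IL-33 library 2 or 4. With the length and GC trends removed only 1 of the 15 was lower, and Foxo1 (-0.10) and Ets1 (-0.047) were not called. Ebf1, a partner of Pax5 that stromal cells also express, was not called at 0.23.

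Plasma cell genes were called higher in 12 of 14 tested cases and lower in 1, with a median of 2.26, and Tnfrsf17 did not pass the filter. Jchain rose by 4.39 and Igkc by 4.14, and Ighm, the most abundant, averaged 2592 ± 1793 CPM in IL-33 lungs and 179 ± 84.8 CPM in controls (SD, n = 5 each). Sdc1, also epithelial, fell by 0.35, and Prdm1 was not called at 0.09. Summed, the list held 2272 to 10268 CPM in IL-33 libraries and 747 to 1025 CPM in control libraries. Ighm and Igkc, the latter at 1629 ± 1008 CPM in IL-33 lungs (SD, n = 5), weigh most in that sum. Both encode immunoglobulin chains, which B cells also carry on their surface, so the sum is not of plasma cells alone. Which cells held these genes was not tested. IL-33 library 2, highest for Ms4a1, Cd79a, Cd79b, Pax5 and Pou2af1, was also highest for this sum.

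Germinal centre genes were called higher in 2 of 8 tested cases and lower in 4, with a median of -0.04. The share called in either direction is near the 69.9% of all genes tested and is not a result about this list. Basp1 rose by 2.48 and Ung by 2.33, and neither is confined to germinal centres. S1pr2 fell by 0.80, Mef2b by 0.57, Fas by 0.38 and Bcl6, the most abundant, by 0.28. Bcl6 was -0.075 and not called with the length and GC trends removed (adjusted p = 0.509). Mef2b was not called with DESeq2 (adjusted p = 0.118) nor in 8 of the 10 fits that leave out a library, and 1 or 2 genes were called lower without control 4 or 5 or without IL-33 library 1 or 3. Rgs13 and Nuggc did not pass the filter, with control means of 0.056 and 0.019 CPM. In the same control lungs S1pr2, Fas and Bcl6 averaged 51.8, 40.7 and 59.7 CPM, and which cells held the falling genes was not tested.

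Of 7 genes linked to B-1 cells, 4 were called higher and 2 lower, with a median of 1.07. Plac8 rose by 1.95 and Spn by 1.9, both also leukocyte genes, while Nt5e fell by 0.88 and Bhlhe41 by 0.75 (not called with the length and GC trends removed). Cd9, the most abundant, was not called at -0.03 but was lower with those trends removed (-0.35). Of 5 tested lymphoid stroma genes, Cxcl13 rose by 2.60 and Tnfsf11 by 3.71, Vcam1 was called higher, Ltbr fell by 0.21, and Mfge8, the most abundant, by 0.26 (-0.13 and not called with the trends removed). Tnfsf11 was scarce in controls, at 0.381 ± 0.144 CPM (SD, n = 5) and 21 reads in all. Which cells held Tnfsf11 was not tested. Madcam1 and Glycam1 did not pass the filter, and Ccl19 and Ccl21a, with 2 identifiers each, were left out.

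Markers of other leukocytes moved alongside. T cell genes were called higher in 7 of 11 cases and lower in 2, with a median of 0.74 and a summed level of 221 to 352 CPM in IL-33 libraries and 86.6 to 158 CPM in control libraries. Trbc2, the most abundant, rose by 2.75 and Cd3g by 1.93, while Cd8b1 fell by 0.89 and Cd8a by 0.77. The Cd8b1 call was lost without control 1 or 3 or without IL-33 library 1 or 5. All 7 pan-leukocyte genes were called higher with a median of 2.45, summing to 2286 to 2983 CPM in IL-33 libraries and 503 to 911 CPM in control libraries. Cd52 rose by 3.54, Coro1a by 2.67 and Laptm5, the most abundant, by 1.71. The median of the 7 B cell genes, 1.15, was below that of the pan-leukocyte genes; the difference was not tested.

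Plasmacytoid dendritic cells can hold RNA of some B lineage genes. Of 7 genes of these cells 5 were called higher and 1 lower, with a median of 1.15. Ccr9 rose by 2.20, Klk1 by 1.74 and Bst2, the most abundant and inducible by interferon, by 1.08, while Cox6a2 fell by 0.72, a call lost without control 2 or 5 or without IL-33 library 1, 3 or 5. Siglech, a defining marker, averaged 4.62 ± 1.18 CPM in IL-33 lungs and 5.01 ± 2.51 CPM in controls (SD, n = 5 each) and was not called. The part of these cells in the B cell gene levels was not tested.

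**Figure D5:**
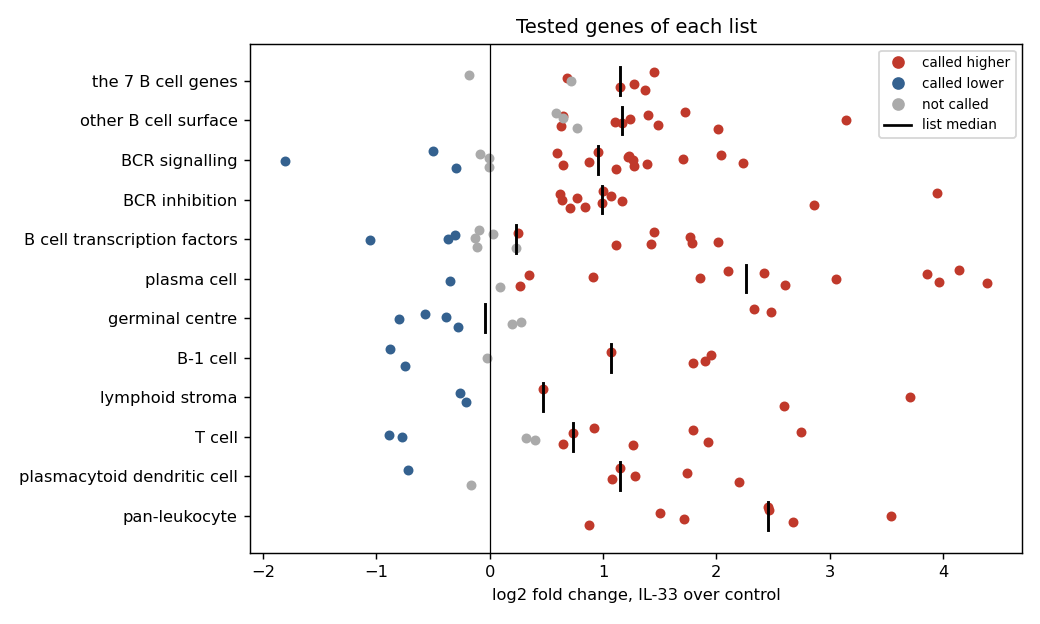
Log2 fold change, IL-33 over control, of each tested gene by list, red where called higher, blue where called lower and grey where not called, with a black bar at the list median. The 7 B cell genes have a median of 1.15, between the transcription factor list at 0.23 and the plasma cell and pan-leukocyte lists at 2.26 and 2.45.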

How the data were processed

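The 10 lung RNA samples were enriched for poly(A) RNA and made into libraries with a strand-keeping kit, per the labels' protocols. Named in the submitters' processing notes are STAR 2.5.4b, HTSeq 0.9.1, FastQC 0.11.6, MultiQC 1.6 and the GRCm38 build. The sources used here state neither the annotation release nor the strand setting of counting. The deposited files hold raw counts of reads per gene, with no normalization. Records assigned to no gene were not used. Multiply aligned records made up 20.0% to 22.8% of records in IL-33 libraries and 15.0% to 16.2% in control libraries. Those with no feature made up 11.4% to 13.7% in IL-33 libraries and 10.4% to 11.1% in control libraries. Both shares were thus higher in IL-33 libraries with no overlap, and their part in the fold changes was not tested. Ambiguous records made up 0.862% to 0.945% over all libraries.

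A single edgeR 4.0.16 model (R 4.3.3) held all 10 libraries and no term besides group, with TMM factors of 0.969 to 1.03, filterByExpr and the quasi-likelihood test, adjusted by Benjamini-Hochberg over 15695 genes at 0.05. Standard errors beside edgeR fold changes were computed from log2(CPM + 0.5) of the 5 and 5 libraries. They belong to the difference of those group means and not to the edgeR estimate itself. Pair ratios used counts + 0.5 and 2-sided exact permutation tests (scipy 1.17.1). The fit was tested on simulated data. Exonic lengths, positions and GC content came from GENCODE annotation of GRCm38, which gave a length for 53360 of 53465 genes. No pair of libraries of a group agreed within sampling noise.

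The 7 genes and the other lists were chosen with earlier results of these data known. All 7 are described. Of each other list the text names the 2 called rises and 2 called falls of greatest size (mean of at least 1 CPM) and its gene of highest level, plus the 10 genes most like the 7; further list members and Ighd were chosen after their values were seen. Alternatives were RLE size factors, library size alone, leaving out the 50 most abundant genes, no filter, 1 CPM in 5 libraries, DESeq2 1.42.0, limma-voom (limma 3.58.1), a test against a 1.5-fold change, the replicate block, length and GC offsets, leaving out each library, and 2 counts added in ratios. Leaving out controls 1 and 2 together and offsets in the ratios were added after the data were seen. Some listed genes are counted in the totals but not reported by name here.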

Additional observations from a re-analysis of the deposited data

Results flagged for a closer look

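Of 124 groups of 5 libraries examined over the genes named, 5 held a library whose gap to the nearest other value took more of the group's range than Dixon's critical value allows, and chance alone gives about 1 in 20 groups. Control 1 was such a library for Pou2af1, at 47.0 CPM against 7.57 to 18.6 CPM in the other controls, for Plac8, at 39.8 CPM against 11.7 to 15.6 CPM, and for Fcgr2b, at 33.9 CPM against 23.0 to 25.8 CPM. IL-33 library 2 was such a library for the chemokine receptor gene Ccr9, at 17.6 CPM against 11.3 to 12.2 CPM in the other IL-33 libraries, and for Klk1, at 5.07 CPM against 2.87 to 3.50 CPM.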

How the results depend on the processing

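Ms4a1, Cd79b and Pou2af1 were called higher under every alternative run. Against a 1.5-fold change 4741 genes and 3 of the 7 passed, Cd79a (1.15, adjusted p = 0.108) and Cr2 (0.68, adjusted p = 0.408) being lost. Scaling by library size alone gave Cr2 0.65 (adjusted p = 0.0514). With length and GC offsets Cd79a was 0.69 and not called, and Fcmr turned to -0.047. Pax5 was called with limma-voom (0.95, adjusted p = 0.0478), with those offsets (0.98) and without controls 1 and 2 together (0.92). Leaving out each library in turn, 10517 to 11089 genes and 3 to 6 of the 7 were called, with log2 fold changes of 0.88 to 1.62 for Cd79a, 0.45 to 1.21 for Pax5, 0.47 to 0.95 for Cr2 and -0.36 to 0.031 for Cd22. The causes were not tested.

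The replicate numbers are not stated to pair mice, so they were not taken as pairs. The same-numbered libraries of both groups correlated in their deviations at -0.063 to 0.242, which does not settle whether they pair. With the replicate block 11122 genes were called against 10975, and Pax5 was called (0.90, adjusted p = 0.0381). In 3 of 5 numbers an IL-33 library correlated best with its own number.

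The pairs of the 7 genes that differed fell to 0 to 14 of 21 when any 1 library was left out, where the smallest p is 0.0159, and to 0 without controls 1 and 2, where it is 0.0357, so fewer samples limit those counts. With offsets 9 pairs differed, 7 of them among the 14 and in the same direction and the other 2 being Ms4a1 against Cd79a and against Cd79b, 0.79 each. Ms4a1 against Pou2af1 ran from -0.14 to 0.034 leaving out a library and was 0.31 with offsets; Cd79a against Cd79b ran from -0.14 to 0.064 and was 0.0031. With offsets Cd79a was -0.32 against Pax5 and -0.045 against Cr2, Cd79b -0.32 and -0.048, and, in ratios to Ms4a1, Tnfrsf13b was -0.32 and H2-DMb2 -0.38. The median r between the 7 genes was 0.720 without the 2 farthest libraries and 0.941 with them.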

Other observations

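Ighd, the gene of the IgD heavy chain that mature naive B cells carry, was, like Cd22, not called higher. It stood at 62.6, 31.0, 42.8, 31.3 and 50.3 CPM in IL-33 libraries 1 to 5, against 102.5, 11.3, 48.9, 41.8 and 35.9 CPM in control libraries 1 to 5. The groups overlapped, with a log2 fold change of -0.15 (adjusted p = 0.748 by edgeR). Within libraries, the log2 ratio of Ighd to Ms4a1 averaged -0.77 ± 0.56 in IL-33 libraries and 0.75 ± 0.33 in control libraries (SD, n = 5 each), with no overlap. The difference was -1.52 ± 0.29 (SE; 2-sided exact permutation p = 0.00794, the smallest possible, adjusted p = 0.0298 over 15 genes set against Ms4a1).

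Among those 15 genes, which hold the 13 other B cell surface genes, chosen after the ratios among the 7 were seen, 5 differed from Ms4a1, and 12 did with length and GC offsets, so the count depends on that choice. Ly6d, a surface protein gene, turned to -1.003 with offsets, beside -0.06 without them, and Fcrla to -0.74, beside -0.19. Ltb was higher relative to Ms4a1 by 1.55 (exact permutation, adjusted p = 0.0476). Fcrl1, an Fc receptor-like gene of B cells, differed from Ms4a1 by -0.78 and H2-Ob, a chain of a class II peptide-loading modulator, by -0.85, both with an exact permutation adjusted p of 0.0298. Tnfrsf13b, a receptor for B cell survival factors, differed by 0.0004 ± 0.16 (SE), and its value turned to -0.32 with length and GC offsets.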
